A study of Arabidopsis thaliana with 15 samples.

Results

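Polysome-bound RNA of etiolated Arabidopsis thaliana seedlings was compared before and after their first 4 h in light. The comparison comprised 6 of the 15 libraries of the study, namely the 3 polysome-bound libraries of dark-grown seedlings (Dark) and the 3 of seedlings moved to light (L4h), chosen by their labels, and it covered every listed gene. All seedlings were wild-type Columbia-0 (Col-0), stratified for 4 days in the cold and dark and then grown on MS medium plates in darkness at 22 °C for 4 days, and only the aerial part was harvested. Dark seedlings were taken at that point, and L4h seedlings 4 h later, kept for that time under white light (100 µmol m-2 s-1). Dark and L4h seedlings thus share genotype, medium and dark growth, and differ in light and in 4 h of age. No polysome-bound library of seedlings kept 4 h longer in darkness was analysed here, so in polysome-bound RNA the light and the added age cannot be told apart. The way in which polysomes were isolated, and whether the 3 replicates came from separate plates or sowings, is not given in the sources used here, and the series text speaks of 2 replicates where the labels number 3.

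Polysomes are mRNAs carrying several ribosomes, and the RNA recovered from them is commonly read as the RNA being translated at the time of harvest. A seedling grown in darkness follows skotomorphogenesis: the hypocotyl elongates, the apical hook stays closed, and the plastids remain etioplasts that hold protochlorophyllide but no chlorophyll. In darkness the PHYTOCHROME INTERACTING FACTORS (PIFs, bHLH transcription factors) drive growth genes, and the COP1/SPA ubiquitin ligase removes light-promoting factors such as HY5. Light activates phytochromes and cryptochromes, PIFs are degraded, HY5 accumulates, and the seedling turns to photomorphogenesis, in which cotyledons open and green while the hypocotyl stops elongating.

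The 6 libraries held 60799126 to 92791080 reads in listed genes. Levels are given below as CPM, the reads of a gene per 1000000 reads of its library after scaling between libraries, always in the order of replicates 1, 2 and 3. Libraries with the same replicate number deviated from their group means together, with correlations across genes of 0.621 to 0.729, and were treated as pairs. Both replicate 1 libraries stood apart from the others on the second principal component (27.6% of the variance), while the first (57.7%) ran from Dark to L4h. Photosynthesis genes were higher in replicate 1 of both groups: the summed level of 21 light-harvesting genes was 8303, 1133 and 1035 CPM in Dark. The same sum was 77239, 19108 and 23373 CPM in L4h. Leaving out replicate 1 gave 5220 rises and 4703 falls, against 4584 and 4475 with all 3 pairs. Root markers were used to check the aerial harvest. WOX5, PLT1, PLT2, COBL9 and EXPA7, genes of the root meristem and root hairs, had too few reads to be tested, and RHD6 and EXPA18 stayed at or below 0.235 CPM in every library. The endodermal genes CASP1, CASP2 and MYB36 were well covered, CASP1 at 449, 269 and 387 CPM in Dark and 307, 185 and 259 CPM in L4h. The summed level of the 5 tested root markers was 453 to 728 CPM in Dark and 313 to 501 CPM in L4h, with 3 of the 5 falling, and its part in other results was not tested.

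A large part of the polysome-bound transcriptome differed between L4h and Dark, in both directions. There were 20975 genes with enough reads for a test. In L4h, relative to Dark, 4584 (21.9%) rose and 4475 (21.3%) fell at a Benjamini-Hochberg adjusted p under 0.05 (edgeR quasi-likelihood test on 3 pairs), and "rose" and "fell" below mean this call. A log2 change of at least 1, which is a 2-fold change, was reached by 2576 of the rising genes (12.3% of those tested) and by 1833 of the falling genes (8.74%). The groups did not overlap, every L4h library lying above or below every Dark library, for 3258 genes that were higher (15.5%) and 3211 that were lower in L4h (15.3%). The median change over all genes was 0.00, as the scaling sets it, so a change in the total amount of polysome-bound RNA was not measured. Fewer cells of a type and less RNA per cell cannot be told apart in such bulk samples. Without the pairing by replicate, 1154 genes rose and 1051 fell, and all 2205 of them were among the genes called with it. Without replicate 2, 2755 genes rose and 2190 fell. Of all tested genes 28.7% overlap another annotated gene, and whether reads were counted by strand is not given in the sources used here, so reads of overlapping genes cannot be told apart. Among the genes named from the lists, it concerns RPSAB, F3H, BBX32, BBX25, CHS, 4CL1, PORB, PORC, GUN4, CHLD, FC1, PSAD2, PSAH2, OHP1, SEP1, CAT2, PIF7, PIF1, PHOT2, SPA3, SPA4, LNK1, BOA, LUX, SIG4, TOC34, PRPL31, XTH15, EXPA18, ASN1, CASP1, CYCD1;1, CYCD3;1, CYCD3;2, CDKB1;1 and CDKB2;1.

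**Figure D1:**
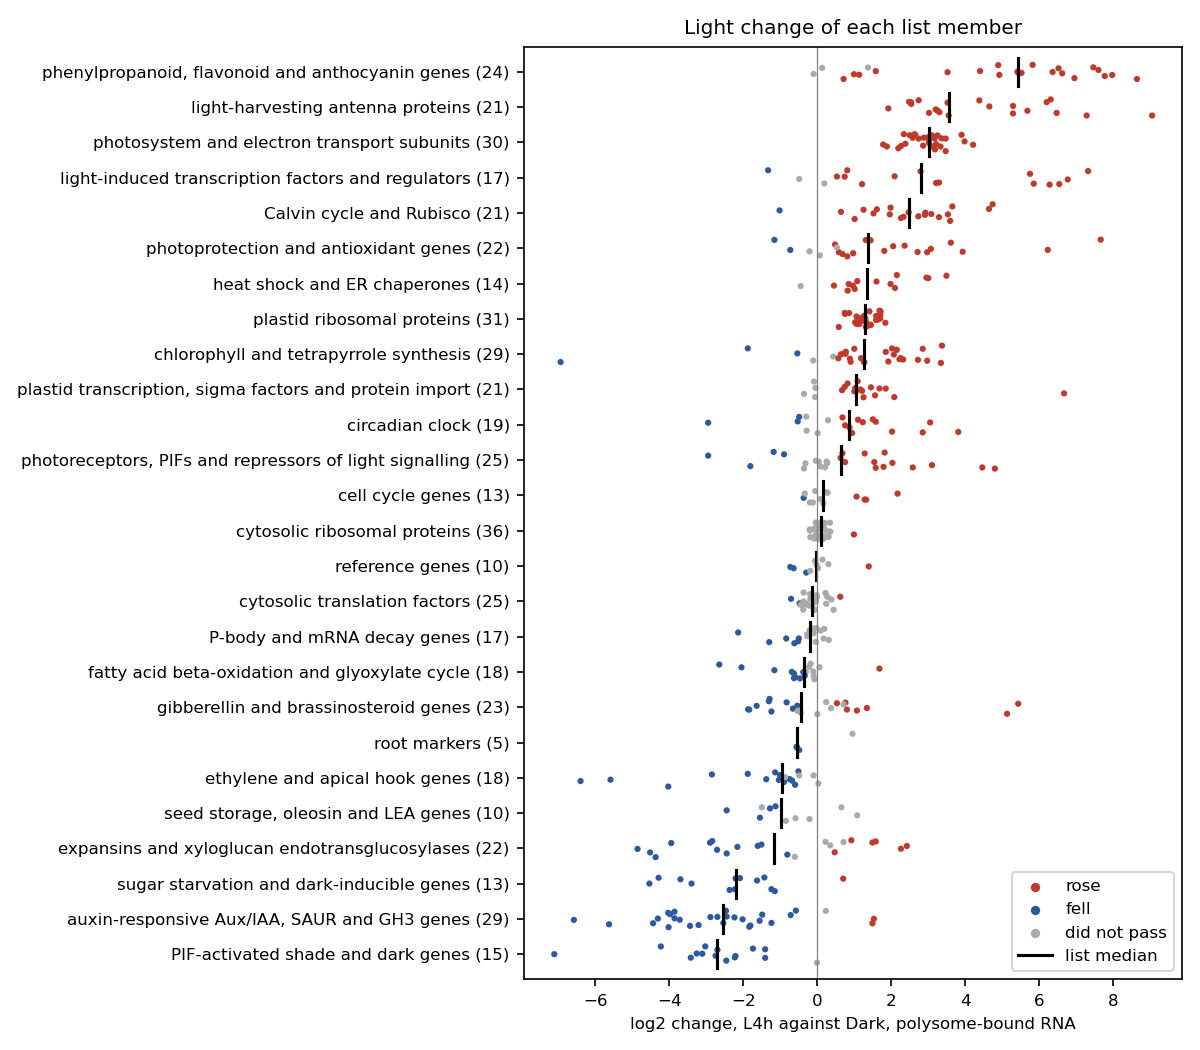
Log2 change in polysome-bound RNA, L4h against Dark (horizontal axis), of every tested member of 26 gene lists (vertical axis, number tested in brackets). Each point is a gene, red where it rose, blue where it fell and grey where it did not pass, and the black bar is the list median, which runs from 5.42 for the flavonoid list to -2.70 for the PIF-activated list.

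The 12 largest rises were led by LHCB1.1, an apoprotein of the main light-harvesting complex of photosystem II that the reference annotation calls CAB2 (TAIR10.1 chromosome 1, 10474656 to 10475969, minus strand). LHCB1.1 had 212, 0.612 and 0.756 CPM in Dark and 4390, 1018 and 1355 CPM in L4h, a log2 change of 9.05 ± 1.87 (SE, 3 pairs; edgeR adjusted p = 0.013). Its groups did not overlap, although Dark replicate 1 lay far above the other Dark libraries. Next came AT2G15020, an uncharacterized protein, at 0.0694, 0.00914 and 0.0226 CPM in Dark and 8.97, 20 and 19.7 CPM in L4h (log2 change 9.01 ± 0.51, edgeR adjusted p = 0.00031). Only 8 reads fell in AT2G15020 over all Dark libraries, against 3554 over L4h. Of the other 10, 4 were flavonoid genes described below (LDOX, F3H, DFR and UF3GT). ELIP1 and BBX32 also belonged to lists. MSRB6, a methionine sulfoxide reductase, which repairs oxidized methionine, had 26, 1.2 and 0.981 CPM in Dark and 782, 520 and 641 CPM in L4h (log2 change 7.75). THI2.2, a thionin, a small cysteine-rich defence peptide, went from 2.58, 0.0731 and 0.293 CPM to 79.8, 104 and 115 CPM (log2 change 7.47). In both genes Dark replicate 1 was the highest Dark library and all L4h libraries lay above it. The serine carboxypeptidase-like gene scpl10 had a log2 change of 7.32 and the MIR163 precursor one of 7.50.

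The 12 largest falls, picked by the same conditions, were of genes far lower on polysomes after 4 h of light. CYP96A5, a cytochrome P450, had 18.7, 18.5 and 28.9 CPM in Dark and 0.139, 0.0794 and 0.0496 CPM in L4h, a log2 change of -8.02 ± 0.33 (edgeR adjusted p = 0.00022). AT4G11610, annotated as a C2 calcium/lipid-binding protein, stood at 94, 95.4 and 101 CPM in Dark and at 1.15, 0.569 and 0.595 CPM in L4h (log2 change -7.04 ± 0.27). GRF7, a growth-regulating factor of plant transcription, had 64.2, 41.7 and 50.2 CPM in Dark and 0.397, 0.622 and 0.136 CPM in L4h (log2 change -7.11). In none of these genes did Dark replicate 1 stand far from the other Dark libraries. Growth hormone genes were among the 12. YUC3, a flavin monooxygenase of auxin synthesis, changed by -6.68 (log2), SAUR68 by -6.58, the SAUR-like gene AT4G13790 by -6.59 and ACS5, an ACC synthase of ethylene synthesis, by -6.40. PORA is described with chlorophyll synthesis below. The remaining members were the uncharacterized AT5G50175 (-7.75), the F-box gene AT1G20790 (-7.09), the EF-hand gene AT2G34020 (-6.45) and RTFL21 (-6.44), a small ROTUNDIFOLIA-like peptide gene.

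**Figure D2:**
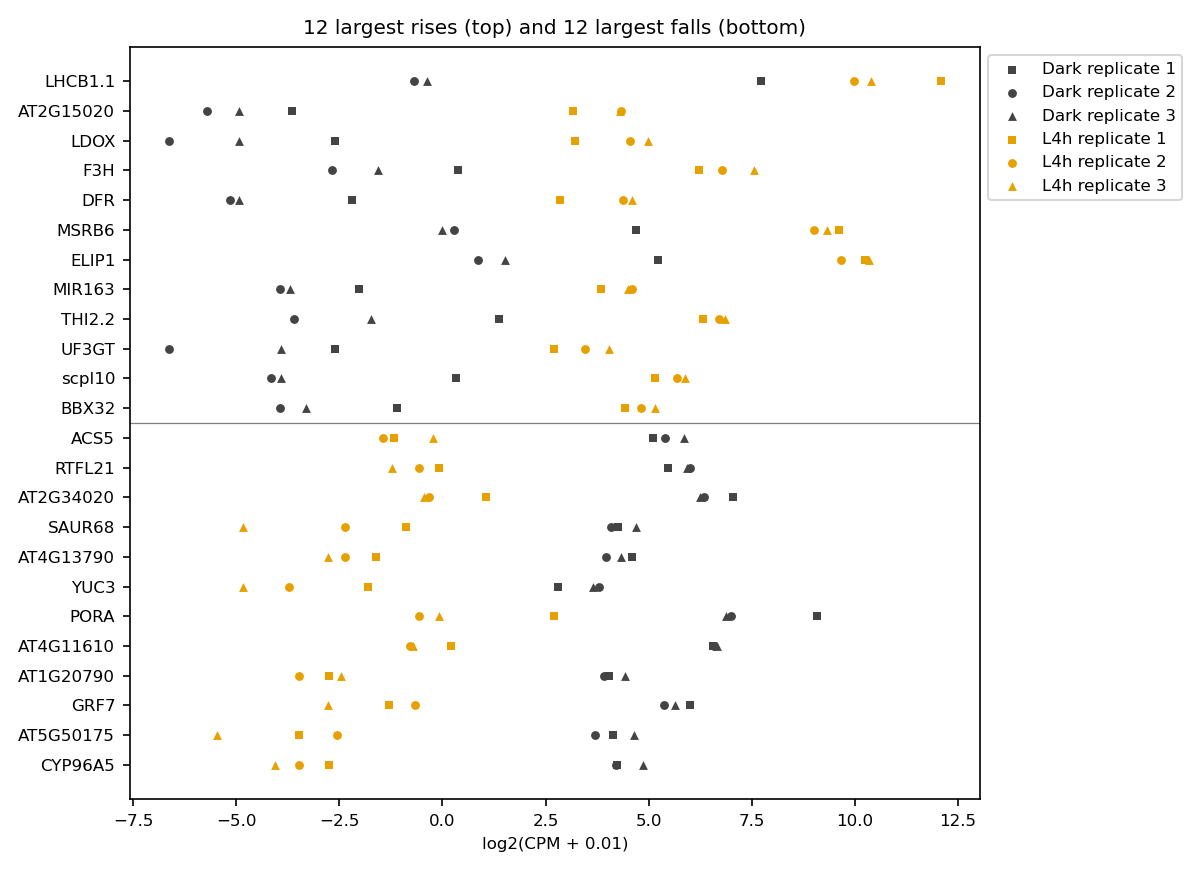
Level of the 12 most increased and the 12 most decreased genes (vertical axis) in each of the 6 polysome-bound libraries, as log2(CPM + 0.01) (horizontal axis). Grey marks are Dark and yellow marks L4h libraries, and squares, circles and triangles are replicates 1, 2 and 3. The 2 colours do not overlap for any of the genes, since the genes were chosen by that condition. The grey squares of LHCB1.1, MSRB6 and ELIP1 lie well to the right of the other grey marks.

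Sequence before these genes was examined because light-responsive promoters are known for the G-box, CACGTG, which HY5 and PIFs can bind, and for the related PBE-box, CACATG, which PIFs can bind. In the 250 bases before the annotated gene start (RefSeq annotation, TAIR10.1), both strands were searched. The G-box stood before 5 of the 12 largest rises and before none of the 12 largest falls, against 7.44% of all 20902 tested genes with such sequence. Among genes that rose at least 2-fold 10.2% held it, among those that fell at least 2-fold 7.61%, and among those that did not pass 6.79%. A match is a description of letters only. The windows that hold it are printed 5′ to 3′ on the strand of the gene, with the G-box in capitals and up to 20 bases on each side.
F3H (chr3:19024942-19024968, plus strand): cCACGTGatttctccacagaccacaag
DFR (chr5:17166033-17166066, minus strand): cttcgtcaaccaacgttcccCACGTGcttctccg
ELIP1 (chr3:8085710-8085755, minus strand): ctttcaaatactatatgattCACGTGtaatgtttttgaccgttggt
UF3GT, the farther of its pair (chr5:21938542-21938587, minus strand): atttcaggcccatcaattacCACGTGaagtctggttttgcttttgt
UF3GT, the nearer (chr5:21938499-21938544, minus strand): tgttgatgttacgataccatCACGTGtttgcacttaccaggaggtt
scpl10 (chr2:9792110-9792155, plus strand): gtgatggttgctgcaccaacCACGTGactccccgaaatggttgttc
The PBE-box stood before 11.1% of all tested genes, 10.9% of those that rose and 17.4% of those that fell at least 2-fold. The G-box stood before 8 of 24 flavonoid genes (33.3%), 7 of 19 clock genes (36.8%), 6 of 14 chaperone genes (42.9%), 4 of 10 seed storage genes (40%) and 5 of 21 antenna genes (23.8%). Other lists that rose differed. Photosystem genes had 6 of 30 (20%), Calvin cycle genes 3 of 21 (14.3%), tetrapyrrole genes 4 of 29 (13.8%) and photoprotection genes 3 of 22 (13.6%). Genes of plastid transcription and import had 2 of 21 (9.52%). Light-induced regulators had 1 of 17 (5.88%) and plastid ribosomal protein genes 1 of 31 (3.23%). The PBE-box was found before 14 of 29 auxin-responsive genes (48.3%), some of which are tandem copies of each other and so share sequence. Windows of IAA6 and IAA19, which are paralogs, and of the neighbouring copies SAUR19 and SAUR22 are shown with the PBE-box in capitals, here in its reverse complement CATGTG. IAA6 and SAUR19 hold a further PBE-box that is not shown.
IAA6 (chr1:19673799-19673844, minus strand): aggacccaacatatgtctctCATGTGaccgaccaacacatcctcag
IAA19 (chr3:5263804-5263849, plus strand): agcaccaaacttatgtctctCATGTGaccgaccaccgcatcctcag
SAUR19 (chr5:5963503-5963548, minus strand): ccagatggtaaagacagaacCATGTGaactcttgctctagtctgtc
SAUR22 (chr5:5975167-5975212, minus strand): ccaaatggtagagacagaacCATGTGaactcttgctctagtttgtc
The I-box GATAAG stood before 12.4% of all tested genes, 13.8% of those that rose and 12.6% of those that fell at least 2-fold. The ACE core GACGTG, which can share bases with a G-box, stood before 6.32%, 8.05% and 5.86% in the same order. For the evening element AAATATCT the shares were 4.83%, 5.6% and 5.31%, and for the telo-box AAACCCTAA, known from promoters of translation genes, 2.04%, 1.56% and 0.93%.

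Light-harvesting and photosystem genes rose as whole groups. All 21 antenna genes rose, with a median log2 change of 3.55 (range 1.92 to 9.05), and all 30 photosystem and electron transport genes rose, with a median of 3.02 (1.78 to 4.21). LHCA1, an antenna protein of photosystem I, had 213, 15.8 and 14.1 CPM in Dark and 4331, 1205 and 1184 CPM in L4h (log2 change 5.68 ± 0.52, edgeR adjusted p = 0.0009). LHCB1.2, of the main antenna of photosystem II, had 222, 6.77 and 7.69 CPM in Dark and 4554, 1046 and 1462 CPM in L4h (log2 change 6.47). Both genes were highest in replicate 1 in either group, and in neither did the groups overlap. The groups overlapped for 2 antenna genes, LHCA2 and LHCB4.1, where Dark replicate 1 exceeded L4h replicates 2 and 3. LHCA2 stood at 1251, 123 and 84.2 CPM in Dark and at 4496, 727 and 756 CPM in L4h, higher in light in 3 of 3 pairs (log2 change 2.53 ± 0.28, edgeR adjusted p = 0.0017). The smallest antenna change was that of LHCB4.3, at 19, 16.1 and 16.6 CPM in Dark and 87.5, 48.2 and 64.6 CPM in L4h (log2 change 1.92). The LHCB1 genes are near-identical, so the division of reads among them is uncertain.

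Among the photosystem genes, PSBO2, a subunit of the oxygen-evolving complex, changed most, from 142, 16.7 and 12.6 CPM to 1271, 405 and 363 CPM (log2 change 4.21 ± 0.39, edgeR adjusted p = 0.00093). PSAD1, a stromal subunit of photosystem I, had 591, 97.2 and 92.4 CPM in Dark and 2595, 638 and 681 CPM in L4h (log2 change 2.58). In both genes the L4h libraries lay above all Dark libraries. PSAH2 and PSAK, further photosystem I subunits, changed by 3.98 and 3.90 (log2), and PSAD2 by 2.86. The smallest change of the group was that of ATPC1, the gamma subunit of the chloroplast ATP synthase, at 1.78. The summed antenna level was 9.3, 16.9 and 22.6 times higher in L4h than in Dark in pairs 1, 2 and 3, and the photosystem sum 5.3, 9.17 and 9.73 times. Without replicate 1 all antenna and photosystem genes still rose, with medians of 3.98 and 3.33.

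**Figure D3:**
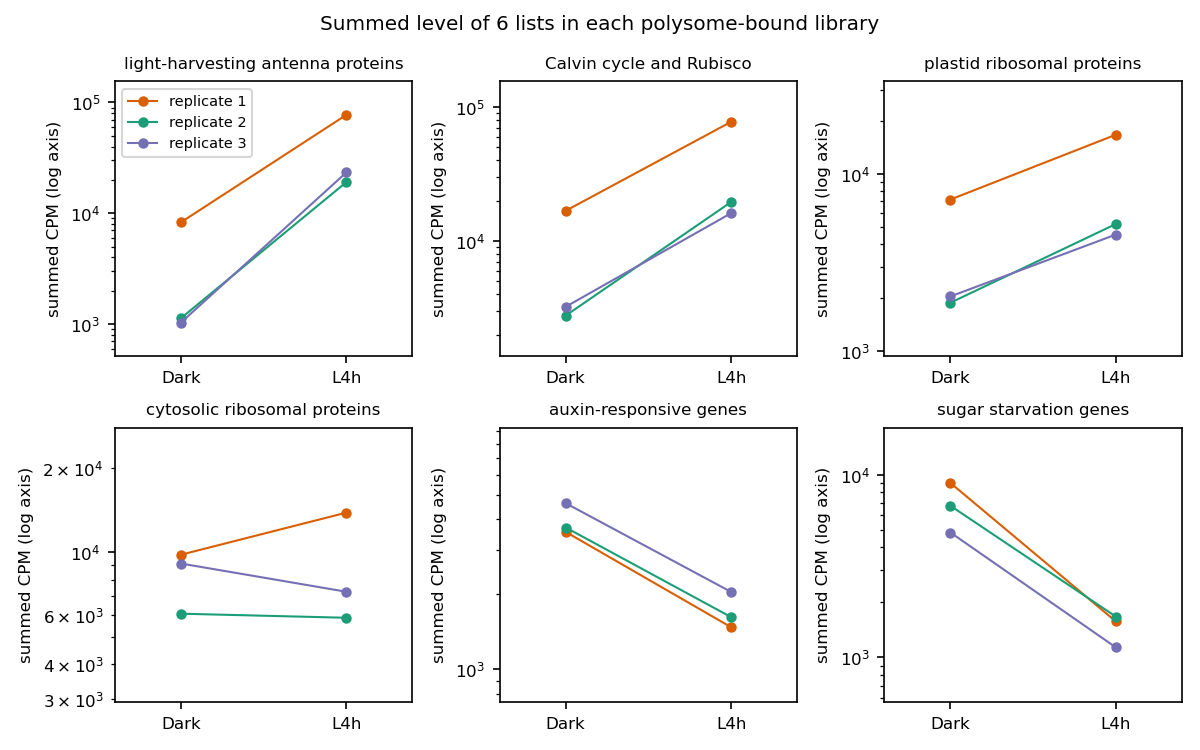
Summed level (vertical axis, CPM, logarithmic) of 6 gene lists in the Dark and L4h polysome-bound libraries, 1 line per replicate pair. The replicate 1 line lies above the others for antenna, Calvin cycle and plastid ribosomal genes in both groups, all 3 lines of those lists slope up, those of auxin-responsive and starvation genes slope down, and the lines of cytosolic ribosomal genes run in different directions.

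Genes of carbon fixation followed. In the Calvin cycle list, 20 of 21 genes rose and 1 fell, with a median log2 change of 2.47. RBCS1A, a small subunit of Rubisco, had 5938, 762 and 994 CPM in Dark and 23185, 5169 and 4121 CPM in L4h (log2 change 2.26 ± 0.23, edgeR adjusted p = 0.0013). Its groups overlapped, since Dark replicate 1 exceeded L4h replicates 2 and 3, yet each pair was higher in light. RBCS1B went from 262, 18.9 and 23.9 CPM to 4484, 868 and 587 CPM (log2 change 4.74), with no overlap. Reads of the near-identical RBCS genes cannot be divided among them with certainty. FBA1, a plastid aldolase, changed by 4.64 (log2), GAPB, a subunit of the photosynthetic glyceraldehyde-3-phosphate dehydrogenase, by 3.59, and CP12-2 by 3.65. CP12 proteins are small regulators that hold GAPDH and phosphoribulokinase inactive in the dark, and the 3 members differed. CP12-1 rose (log2 change 1.98) like CP12-2, whereas CP12-3 fell, from 16.5, 15.9 and 22.2 CPM to 7.96, 8.35 and 10.5 CPM (log2 change -1.02 ± 0.10, edgeR adjusted p = 0.0012). The groups of CP12-3 did not overlap.

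Chlorophyll synthesis showed rises along the pathway and falls at a few steps. Of 29 tetrapyrrole genes, 24 rose and 3 fell, with a median log2 change of 1.26. HEMA1, glutamyl-tRNA reductase, the first committed enzyme, had 60.9, 39.7 and 42.3 CPM in Dark and 350, 166 and 180 CPM in L4h (log2 change 2.22 ± 0.14, edgeR adjusted p = 0.00037). Its isogene HEMA2 stood at 13.6, 18.4 and 17.4 CPM in Dark and at 14, 16.2 and 15.3 CPM in L4h (log2 change -0.11, edgeR adjusted p = 0.42). All L4h libraries of HEMA1 were above all of Dark, and those of HEMA2 lay within the Dark range. CHLH, a subunit of magnesium chelatase, the entry to the chlorophyll branch, went from 172, 50.2 and 45.8 CPM to 1013, 615 and 657 CPM (log2 change 3.34). GUN4, which stimulates that enzyme, changed by 3.37 and DVR, divinyl reductase, by 2.85. The chelatase subunit CHLD changed less, by 0.57, though it also rose.

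The 3 protochlorophyllide oxidoreductases, which carry out the step of chlorophyll synthesis that needs light, moved in opposite directions. PORA had 545, 128 and 117 CPM in Dark and 6.51, 0.661 and 0.929 CPM in L4h, a log2 change of -6.94 ± 0.29 (edgeR adjusted p = 0.00022). PORB fell from 1432, 434 and 502 CPM to 332, 119 and 159 CPM (log2 change -1.88 ± 0.15). PORC rose from 34.7, 9.37 and 9.67 CPM to 201, 62.8 and 70.8 CPM (log2 change 2.72 ± 0.12). For each of them the groups did not overlap. PORA is known as the form that is abundant in etioplasts and lost in light, and PORC as the form of greening and green tissue. HO1, heme oxygenase, which makes the precursor of the phytochrome chromophore, fell from 688, 359 and 404 CPM to 412, 269 and 294 CPM (log2 change -0.54, edgeR adjusted p = 0.023), with groups that overlapped. The ferrochelatases FC1 and FC2, at the entry to heme, rose by 0.76 and 2.07 (log2).

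**Figure D4:**
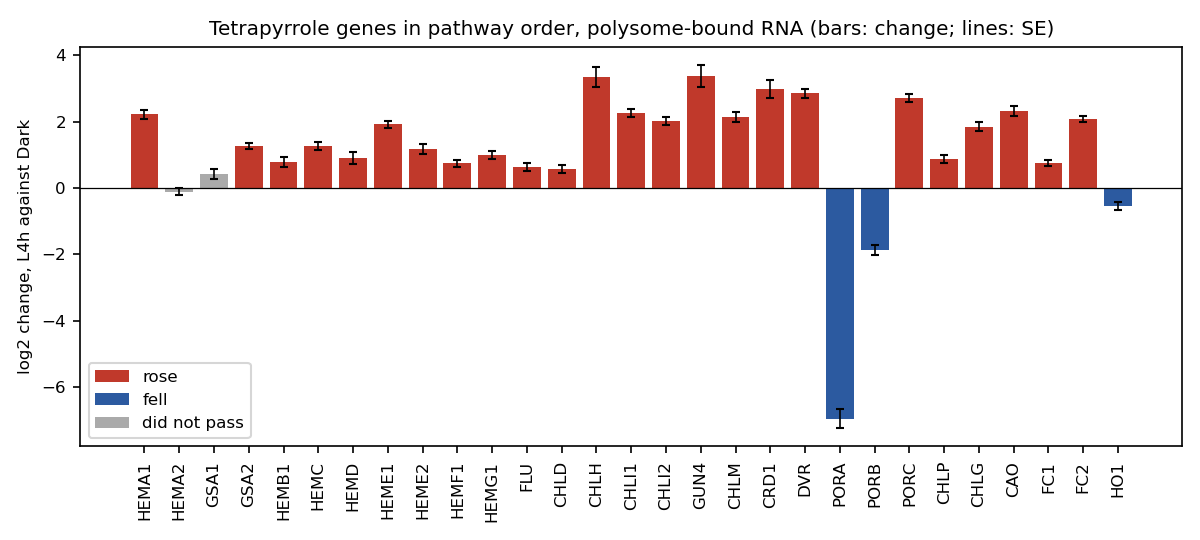
Log2 change in polysome-bound RNA, L4h against Dark (vertical axis), of 29 tetrapyrrole genes in the order of the pathway (horizontal axis), with SE from 3 pairs as lines. Red bars rose, blue bars fell and grey bars did not pass, and PORA at -6.94 and PORB at -1.88 stand below 0 between DVR and PORC, which rose.

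The machinery of plastid gene expression rose by smaller amounts. All 31 plastid ribosomal protein genes, which are encoded in the nucleus, rose, with a median log2 change of 1.30 and a range of 0.58 to 1.84. L4h lay above Dark without overlap for only 3 of the 31, PRPL27, PRPL4 and PRPL31, where 15.5% of all tested genes did so. The replicate 1 pair was high in both groups. PRPS1 had 255, 69 and 61.3 CPM in Dark and 510, 151 and 126 CPM in L4h (log2 change 1.06 ± 0.11, edgeR adjusted p = 0.0012), so Dark replicate 1 exceeded L4h replicates 2 and 3. PRPL27 had the largest change, from 156, 45.3 and 51.3 CPM to 564, 185 and 158 CPM (log2 change 1.84). Without replicate 1 all 31 rose, with the median at 1.30 again.

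Of 21 genes of plastid transcription and protein import, 17 rose and none fell, with a median log2 change of 1.04. SIG5, a sigma factor of the plastid-encoded RNA polymerase known to respond to blue light, stood out in this list. It had 5.52, 1.14 and 0.947 CPM in Dark and 133, 203 and 241 CPM in L4h (log2 change 6.67 ± 0.82, edgeR adjusted p = 0.0023). The other sigma factors also rose, SIG1 by 2.08 and SIG2 by 1.56 (log2) and SIG3, SIG4 and SIG6 by 1.03 to 1.21. Import receptors of the outer envelope divided, as TOC33 rose by 1.00 (log2), whereas its paralog TOC34 had 35.7, 21.9 and 25.2 CPM in Dark and 30.7, 21.3 and 24.9 CPM in L4h (log2 change -0.09, edgeR adjusted p = 0.48). The other 3 genes that did not pass were translocon components.

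In contrast, genes of the cytosolic translation apparatus moved little on this scale. Only 1 of the 36 genes for cytosolic ribosomal proteins passed, by rising, with a median log2 change of 0.09 (range -0.20 to 0.99), where 21.9% of all genes rose. RPS6A, a protein of the small subunit that is phosphorylated in light, stood at 385, 205 and 336 CPM in Dark and at 607, 198 and 265 CPM in L4h (log2 change 0.09 ± 0.21, edgeR adjusted p = 0.76). It was higher in light in 1 of 3 pairs, and the groups overlapped. The pairs of the list differed, with summed levels 1.41, 0.967 and 0.794 times those of Dark in pairs 1, 2 and 3. Without replicate 1 the median was -0.15, with 1 rise and 3 falls. The single riser, RPSAB, was read at under 10 CPM in every library and overlaps another gene. Among 25 translation factor genes, 1 rose (4%) and 3 fell (12%), against 21.9% and 21.3% of all tested genes (median -0.14). EIF4E, the cap-binding protein, rose from 27.7, 30.7 and 38.1 CPM to 52.7, 42.1 and 53.2 CPM (log2 change 0.62 ± 0.13, edgeR adjusted p = 0.013), with groups that did not overlap. EIFISO4G1, a scaffold of the plant-specific cap complex, fell (log2 change -0.71), as did EIF3A (-0.48) and EIF3H (-0.33). Without replicate 1, 2 of the 25 factors rose and 7 fell (median -0.22), where 5220 and 4703 of 21328 tested genes did. The low count of falls among the factors thus depended on the replicate 1 pair.

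Among 17 genes of mRNA decay and P-bodies, the granules that hold untranslated mRNA, none rose and 6 fell (median log2 change -0.21), where 21.9% of all tested genes rose and 21.3% fell. Without replicate 1 there were 5 falls. The decapping enzyme DCP2 fell from 58.7, 42.3 and 34 CPM to 29.4, 28.9 and 27.5 CPM (log2 change -0.62 ± 0.15, edgeR adjusted p = 0.024). Its partner DCP1 had 67.8, 35.4 and 36.2 CPM in Dark and 51.5, 34.7 and 31.1 CPM in L4h (log2 change -0.21, edgeR adjusted p = 0.17). DCP5, a P-body protein needed for the repression of translation in dark-grown seedlings, changed by -0.52, from 276, 297 and 358 CPM to 167, 228 and 259 CPM, and passed (edgeR adjusted p = 0.022). Groups did not overlap for DCP2 or DCP5. The zinc finger gene TZF1 changed most of this list, at -2.14 (log2). VCS, a decapping scaffold, changed by -0.84 and CAF1A, a deadenylase, by -1.30. Chaperone genes went the other way, 13 of 14 rising and none falling, with a median of 1.34. Without replicate 1 there were 12 rises and 1 fall. HSP70-4 had 94, 34.9 and 49.2 CPM in Dark and 450, 273 and 611 CPM in L4h (log2 change 2.95 ± 0.29, edgeR adjusted p = 0.0011). The constitutive HSC70-1 stood at 1341, 1096 and 1831 CPM in Dark and 1160, 789 and 1165 CPM in L4h (log2 change -0.45, edgeR adjusted p = 0.065). BIP3, an ER chaperone of the unfolded protein response, had 0.0555, 0.274 and 0.271 CPM in Dark and 0.436, 1.28 and 8.26 CPM in L4h, the last library well above the others.

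Most genes listed as light-induced regulators rose. Of these 17 genes, 14 rose (82.4%, against 21.9% of all tested genes) and 1 fell, with a median log2 change of 2.79. Without replicate 1, 15 rose. The list was chosen with earlier results of these data known, so its rise is no test of photomorphogenesis regulators in general. HY5, the bZIP factor that promotes light development, had 43.3, 19.1 and 16.5 CPM in Dark and 181, 205 and 286 CPM in L4h (log2 change 3.21 ± 0.42, edgeR adjusted p = 0.0028). Its homolog HYH went from 7.1, 0.64 and 0.18 CPM to 115, 86.3 and 75.6 CPM (log2 change 6.28). Neither gene's groups overlapped. B-box genes made up most of the list. BBX32, BBX30, BBX25 and BBX31 rose by 7.32, 6.77, 6.54 and 5.85 (log2), and BBX22, BBX24, BBX19 and BBX29 by 0.53 to 3.29. BBX21, an activator of HY5, fell from 760, 341 and 348 CPM to 226, 157 and 161 CPM (log2 change -1.33 ± 0.17, edgeR adjusted p = 0.0029). A further pair of B-box genes did not pass. The chloroplast regulators GLK2 and GLK1 rose by 2.09 and 0.74 (log2), and the GATA factors GNC and CGA1 by 1.21 and 5.75.

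Among 25 photoreceptor and light-signalling genes, 13 rose (52%) and 4 fell (16%), against 21.9% and 21.3% of all tested genes (median log2 change 0.63). Without replicate 1 there were 16 rises and 6 falls. PHYA, the phytochrome of dark-grown seedlings that is degraded in light, fell from 872, 556 and 519 CPM to 185, 165 and 190 CPM (log2 change -1.81 ± 0.19, edgeR adjusted p = 0.0013). PHYB, the main phytochrome of light-grown plants, rose from 33, 45 and 56.7 CPM to 45.7, 90.8 and 95.5 CPM (log2 change 0.75 ± 0.13, edgeR adjusted p = 0.0083). PHYA groups did not overlap and PHYB groups did, with each PHYB pair higher in light. FHL and FHY1, which carry PHYA into the nucleus, fell by 2.95 and 1.18 on the log2 scale. The phototropins moved apart, PHOT1 falling (log2 change -0.90) and PHOT2 rising (1.58). PIF7, PIF5 and PIF4 rose by 4.46, 2.03 and 1.54 (log2). PIF3 stood at 64.5, 52.1 and 43.5 CPM in Dark and 47.3, 76.7 and 48.2 CPM in L4h (log2 change 0.09, edgeR adjusted p = 0.75), and PIF1 did not pass either. Components of the repressor complex rose, COP1 by 1.28 and SPA1, SPA3 and SPA4 by 3.10, 2.58 and 1.82 (log2). RUP2 and RUP1, which switch off the UV-B receptor, rose by 4.80 and 1.79, while the receptor gene UVR8 itself had a log2 change of 0.21 (edgeR adjusted p = 0.26).

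In the circadian clock list, 12 of 19 genes rose (63.2%) and 3 fell (15.8%), against 21.9% and 21.3% of all tested genes (median log2 change 0.87). The morning genes CCA1 and LHY rose, CCA1 from 16.8, 6.03 and 2.66 CPM to 34.3, 30.2 and 17.7 CPM (log2 change 2.02 ± 0.34, edgeR adjusted p = 0.0068). LHY changed by 0.75. PRR9, a pseudo-response regulator known to be induced by light, went from 1.9, 1.03 and 0.722 CPM to 10, 19.3 and 20.7 CPM (log2 change 3.81). All 3 genes were apart between groups. LNK1, a coactivator that works with RVE8, rose by 3.05 (log2) and ELF4 by 2.85. BOA, a paralog of the evening gene LUX, fell from 51.2, 80.7 and 85.3 CPM to 6.84, 10.5 and 10.6 CPM (log2 change -2.95 ± 0.10, edgeR adjusted p = 0.00022). LUX itself had 53, 62.2 and 77.2 CPM in Dark and 37.7, 50 and 72.6 CPM in L4h (log2 change -0.30, edgeR adjusted p = 0.091). TOC1 did not pass either.

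The flavonoid list had the largest median of all 26, at a log2 change of 5.42. Of its 24 genes, 21 rose and none fell. Entry enzymes of phenylpropanoid synthesis changed least: PAL1, phenylalanine ammonia-lyase, had 124, 192 and 300 CPM in Dark and 216, 413 and 627 CPM in L4h (log2 change 0.99 ± 0.13, edgeR adjusted p = 0.0025). PAL2 changed by 0.71 and C4H by 1.13, while PAL4 and 4CL1 did not pass (-0.10 and 0.13). CHS, chalcone synthase, the first flavonoid enzyme, went from 21.7, 2.87 and 7.73 CPM to 415, 577 and 1305 CPM (log2 change 6.52 ± 0.87, edgeR adjusted p = 0.003). No CHS library of Dark reached any of L4h.

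Later enzymes were close to silent in Dark. LDOX, which makes anthocyanidins, had 0.153, 0 and 0.0226 CPM in Dark and 9.24, 23.5 and 31.8 CPM in L4h (log2 change 8.64 ± 0.85, edgeR adjusted p = 0.0011). F3H, flavanone 3-hydroxylase, had 1.28, 0.146 and 0.327 CPM in Dark and 75, 109 and 189 CPM in L4h (log2 change 7.97). The overlapping long noncoding RNA AT3G51238 was listed at the same levels as F3H in all 3 Dark libraries, but at 0, 7.04 and 13.1 CPM in L4h, so the Dark reads of the pair cannot be told apart. DFR, dihydroflavonol reductase, went from 0.208, 0.0183 and 0.0226 CPM to 7.26, 20.7 and 24.1 CPM (log2 change 7.77). For these genes Dark replicate 1 was the highest of the Dark libraries and L4h replicate 1 the lowest of L4h. UF3GT, a glycosyltransferase that decorates anthocyanins, changed by 7.46. Among the regulators, MYB12, which activates flavonol genes, and PAP1, which activates anthocyanin genes, rose by 5.44 and 5.52 (log2). F3'H had 4.59, 5.5 and 3.85 CPM in Dark and 5.14, 13.7 and 22.9 CPM in L4h (log2 change 1.37 ± 0.46), was higher in light in 3 of 3 pairs, and did not pass (edgeR adjusted p = 0.06). Without replicate 1, 22 genes of the list rose.

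Photoprotection genes rose beside them, 17 of 22 (77.3%), while 2 fell (9.09%), against 21.9% and 21.3% of all tested genes (median log2 change 1.38). ELIP1, an early light-induced protein that binds pigments under excess light, had 37.2, 1.82 and 2.87 CPM in Dark and 1223, 811 and 1305 CPM in L4h (log2 change 7.66 ± 1.05, edgeR adjusted p = 0.0033). ELIP2 changed by 6.23, OHP1 by 3.93 and SEP1 by 3.07. PSBS, the sensor of energy-dependent quenching, changed by 3.61, from 212, 49.1 and 64 CPM to 2023, 768 and 786 CPM. The catalases differed: CAT2, the form of photosynthetic tissue, rose by 1.81 (log2), CAT3 fell from 7785, 5659 and 8445 CPM to 3277, 2998 and 3386 CPM (log2 change -1.16 ± 0.18, edgeR adjusted p = 0.0047), and CAT1 fell by 0.73 on the log2 scale. CAT3 libraries did not overlap between groups.

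Most listed genes of dark growth fell. Of 15 genes listed as PIF-activated, none rose and 14 fell (93.3%, against 21.3% of all tested genes), with a median log2 change of -2.70. The list was chosen with earlier results of these data known, so its fall is no test of PIF targets in general. ATHB2, a homeodomain factor of the shade response, fell from 183, 111 and 88.8 CPM to 13.7, 15.7 and 15.1 CPM (log2 change -3.03 ± 0.26, edgeR adjusted p = 0.0007). HAT1 fell from 120, 114 and 99.1 CPM to 23.9, 20 and 16.9 CPM (log2 change -2.46). Groups of both were far apart. PAR1 and PAR2, small helix-loop-helix proteins, changed by -4.23 and -3.42 (log2) and PIL1 by -3.26. GRF7, described above, had the largest change of the list. HFR1, a PIF antagonist that is stabilized in light, was the exception, at 123, 114 and 80.3 CPM in Dark and 99.3, 123 and 90.5 CPM in L4h (log2 change -0.01 ± 0.13, edgeR adjusted p = 0.97).

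In the auxin-responsive list, 26 of 29 genes fell and 2 rose, with a median log2 change of -2.54. IAA1 fell from 29.9, 25.8 and 24 CPM to 8.23, 7.22 and 7.2 CPM (log2 change -1.81 ± 0.10, edgeR adjusted p = 0.00029). IAA2 changed by -1.56, and IAA6 had 66.4, 58.1 and 85.3 CPM in Dark and 1.77, 0.952 and 1.61 CPM in L4h (log2 change -5.63). IAA19, known from hypocotyl growth, went from 351, 277 and 469 CPM to 26.5, 19.8 and 28.4 CPM (log2 change -3.86). Aux/IAA proteins are repressors of auxin response that auxin itself induces, and for these 4 genes no Dark library reached down to L4h. SAUR68 and SAUR65, of the SMALL AUXIN UP RNA family that promotes cell expansion, changed by -6.58 and -4.44, and the tandem copies SAUR19 to SAUR24, among which reads cannot be divided with certainty, by -4.31 to -2.89. GH3.3 and GH3.5, which conjugate auxin to amino acids, fell by 4.03 and 2.24 on the log2 scale. GH3.6 and SAUR14 rose, GH3.6 from 61, 81.9 and 71.4 CPM to 160, 208 and 237 CPM (log2 change 1.49 ± 0.13, edgeR adjusted p = 0.00072) and SAUR14 by 1.53. IAA14 did not pass.

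Of 22 wall-loosening genes 12 fell (54.5%) and 6 rose (27.3%), against 21.3% and 21.9% of all tested genes (median log2 change -1.16). The share of rises was thus near that of all genes. Without replicate 1, 13 fell. XTH19, a xyloglucan endotransglucosylase, had 176, 166 and 390 CPM in Dark and 6.84, 5.44 and 12.6 CPM in L4h (log2 change -4.86 ± 0.13, edgeR adjusted p = 0.00022). XTH15 fell from 2990, 918 and 756 CPM to 136, 42.6 and 40.4 CPM (log2 change -4.37). EXPA11, an expansin, went from 149, 127 and 162 CPM to 15.4, 7.37 and 7.31 CPM (log2 change -3.95). None of these overlapped between groups. In the other direction EXPA10 rose by 2.42 (log2) and XTH9 by 2.26. EXPA1 had 21.5, 23.1 and 23.6 CPM in Dark and 72.9, 36.3 and 19.4 CPM in L4h, higher in light in 2 of 3 pairs (log2 change 0.71, edgeR adjusted p = 0.19).

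Ethylene and hook genes fell, 14 of 18 (77.8%, against 21.3% of all tested genes), with none rising (median log2 change -0.95). HLS1, which keeps the apical hook closed, fell from 20.5, 13.4 and 13 CPM to 2.8, 2.1 and 1.62 CPM (log2 change -2.85 ± 0.13, edgeR adjusted p = 0.00024). ACS5 went from 34.5, 42.3 and 57.7 CPM to 0.436, 0.357 and 0.843 CPM. ACS2, a further ACC synthase, stood at 5.72, 9.02 and 7.88 CPM in Dark and at 5.85, 7.76 and 9.44 CPM in L4h (log2 change 0.03, edgeR adjusted p = 0.89). HLS1 and ACS5 were apart between groups, ACS2 was not. EIN3 and EIL1, the main transcription factors of ethylene response, fell by 0.75 and 0.51 on the log2 scale. Gibberellin and brassinosteroid genes went both ways, with 7 rising (30.4%) and 9 falling (39.1%) of 23 tested (median -0.45). Of all tested genes 21.9% rose and 21.3% fell. Without replicate 1 there were 8 rises and 10 falls in the list, and its median was -0.09. GA2OX1, which inactivates gibberellin, rose from 1.32, 0.493 and 0.192 CPM to 26, 22 and 25.9 CPM (log2 change 5.43 ± 0.51, edgeR adjusted p = 0.00099). Of the other gibberellin 2-oxidases in the list, GA2OX8 rose (log2 change 1.34), and GA2OX2 changed by 0.71 and did not pass (edgeR adjusted p = 0.066). Outside the list, and named after their values were seen, GA2OX7 rose (5.87), while GA2OX6 fell from a mean of 27.1 CPM in Dark to 6.9 CPM in L4h (log2 change -2.00 ± 0.34, edgeR adjusted p = 0.0072) and GA2OX4 fell (-1.46). GA20OX1, of gibberellin synthesis, fell (log2 change -1.24), and the synthesis gene GA3OX2 rose (5.13). The DELLA repressor genes GAI, RGL1, RGL3 and RGA fell by 0.54 to 1.87 on the log2 scale, and the fifth DELLA gene, RGL2, rose by 0.53, a call that was lost under another scaling.

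Most genes listed as induced by sugar starvation or darkness fell, in a list also chosen with earlier results of these data known. In the list of sugar starvation and dark-inducible genes, 12 of 13 fell and 1 rose (median log2 change -2.21). DIN1, a senescence-associated sulfurtransferase, had 2278, 794 and 511 CPM in Dark and 108, 50.4 and 22.6 CPM in L4h (log2 change -4.29 ± 0.18, edgeR adjusted p = 0.00022). ASN1, the asparagine synthetase known as DIN6, fell from 675, 318 and 81.5 CPM to 28.6, 17.7 and 2.7 CPM (log2 change -4.54). Both fell in all 3 pairs with no overlap, from Dark levels that differed several-fold between libraries. DIN9 rose (log2 change 0.70).

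Seed oil is turned into sugar through beta-oxidation and the glyoxylate cycle. Of 18 genes of these routes 10 fell (55.6%) and 1 rose (5.56%), against 21.3% and 21.9% of all tested genes (median -0.36). Without replicate 1 there were 2 rises. ICL, isocitrate lyase, fell from 780, 283 and 581 CPM to 172, 70.6 and 148 CPM (log2 change -2.05 ± 0.12, edgeR adjusted p = 0.00032). PCK1, of gluconeogenesis, fell from 886, 599 and 622 CPM to 91.1, 109 and 133 CPM (log2 change -2.65). MLS, malate synthase, changed by -1.16, with groups that overlapped, and the peroxisomal malate dehydrogenase PMDH2 rose by 1.68 (log2). The summed level of the seed storage genes was 505, 19.8 and 133 CPM in Dark and 194, 26.9 and 108 CPM in L4h, so replicate 2 was low in both groups. CRA1, a cruciferin, had 244, 2.61 and 62.7 CPM in Dark and 98.9, 0.78 and 44.2 CPM in L4h (log2 change -1.13 ± 0.24, edgeR adjusted p = 0.015). It was lower in light in 3 of 3 pairs. Of the 10 seed genes tested, 4 fell (40%, against 21.3% of all tested genes) and none rose. Without replicate 1 there were 3 falls and 2 rises.

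The D-type cyclins of group 3, which drive cells into division, rose on polysomes, CYCD3;2 from 27.3, 12.4 and 13.7 CPM to 143, 58.6 and 50.6 CPM (log2 change 2.17 ± 0.13, edgeR adjusted p = 0.00035). CYCD3;3 and CYCD3;1 changed by 1.32 and 1.28. The mitotic marker CYCB1;1 stood at 3.19, 2.69 and 2.89 CPM in Dark and at 2.32, 2.74 and 2.99 CPM in L4h (log2 change -0.12, edgeR adjusted p = 0.63), and CDKB1;1 and CDKB2;1 did not pass. In the whole list of 13 cell cycle genes 4 rose, the fourth being the CDK inhibitor KRP2, and 1 fell, CYCD1;1, or 30.8% and 7.69%, against 21.9% and 21.3% of all tested genes. Among 10 genes in common use as references, 6 did not pass, TIP41, YLS8, UBQ10 and GAPC1 among them. Of all 20975 tested genes 11916 did not pass, a similar share, so the count is no result about reference genes. ACT2, an actin, fell from 1741, 1650 and 2564 CPM to 1522, 937 and 1125 CPM (log2 change -0.73, edgeR adjusted p = 0.047), a call lost under another scaling, ACT7 fell by 0.64 and SAND by 0.30 on the log2 scale, and GAPC2 rose by 1.39. Without replicate 1 there were 2 rises and 2 falls among the 10.

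Of 20 miRNA precursors tested, 3 rose (15%) and 5 fell (25%), near the 21.9% and 21.3% of all tested genes, so the count is no result about this class. The MIR163 precursor had 0.236, 0.0548 and 0.0677 CPM in Dark and 14.4, 24 and 22.7 CPM in L4h (log2 change 7.50 ± 0.53, edgeR adjusted p = 0.00044). The MIR167d precursor fell from 2.86, 6.72 and 4.55 CPM to 0.298, 0.265 and 0.062 CPM (log2 change -4.57 ± 0.52, edgeR adjusted p = 0.0017). Neither precursor's groups overlapped. These reads measure the precursor, not the mature miRNA. The mature sequences are shown because they define the target sets, methyltransferase genes for miR163 and the auxin response factors ARF6 and ARF8 for miR167. They were read 5′ to 3′ from TAIR10.1 at the RefSeq mature positions, with the seed, bases 2 to 8, in capitals.
miR163 (chr1:24884359-24884382, plus strand): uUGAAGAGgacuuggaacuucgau
miR167d (chr1:11137556-11137577, plus strand): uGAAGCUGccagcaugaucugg
Of 128 long noncoding RNA genes tested, 9 rose and 12 fell, and of 20349 protein-coding genes 4523 rose and 4381 fell; the difference was not tested.

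To ask whether polysome-bound RNA changed beyond total RNA, its change from Dark to L4h was compared with that of the 6 total RNA libraries of Dark and L4h, in 1 fit of 12 libraries. No gene of 21924 (0%) differed in that change between polysome-bound and total RNA at an adjusted p under 0.05 (edgeR quasi-likelihood test of the interaction), and the smallest adjusted p was 0.24. An unadjusted p under 0.05 was reached by 1168 of the 21924 genes, close to the share of 0.05 that would reach it if none differed. Without the pairing 115 genes reached it. These counts are no evidence of a difference. No gene passed with other scaling, without the filter on low counts, without the pairing or without replicate 2 or 3. Without replicate 1, the change from Dark to L4h was higher in polysome-bound than in total RNA for 2 genes and lower for 3. This is a comparison of changes, not of levels. They were PGIP1, PIA1, AT3G13700, AT4G19112 and the long noncoding RNA AT3G51238, named after their values were seen. All but AT3G51238 were at 0 CPM in replicates 2 and 3 of a group. It was L4h total RNA for PGIP1 and PIA1, Dark total RNA for AT3G13700 and L4h polysome-bound RNA for AT4G19112. Their differences of 13.16, 12.69, -13.09 and -15.10 (log2) rest on these zeros, whose source was not tested. Apart from AT4G19112, which has no match in the reference annotation, each overlaps another gene. AT3G51238, which overlaps F3H, had 18.7, 75.6 and 60.8 CPM in total RNA and 0, 7.74 and 14.4 CPM in polysome-bound RNA of L4h. The median SE of the difference was 0.24 (log2), so small differences were not detectable. Differences of more than 1 log2 unit did not pass either. Examples, named after their values were seen, are AT1G07590 at 1.39 and CEL2 at -1.47 (edgeR adjusted p = 0.93 for each). The lack of calls therefore does not show that the changes in both kinds of RNA were equal. The changes of polysome-bound and total RNA went together, with Pearson's r of 0.927 and Spearman's rho of 0.897 across 20975 genes, which are not independent replicates. Of the genes that rose on polysomes 98.7% had a rise in total RNA by sign, and of those that fell 99.4% had a fall.

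List medians in the 12-library fit lay near each other for most lists. Auxin-responsive genes had a median log2 change of -2.50 in polysome-bound and -2.79 in total RNA, PIF-activated genes -2.67 in both, and flavonoid genes 5.45 and 5.49. Light-induced regulators had 2.82 in polysome-bound and 2.54 in total RNA. The medians of several plastid lists were lower on polysomes than in total RNA. Calvin cycle genes had a median of 2.50 in polysome-bound and 2.84 in total RNA, photosystem genes 3.05 and 3.37, tetrapyrrole genes 1.29 and 1.80. Genes of plastid transcription and protein import had 1.07 and 1.62 in the same order, and antenna genes, with a smaller gap, 3.59 and 3.70. Plastid ribosomal protein genes had 1.33 in polysome-bound and 1.75 in total RNA, and the median of their gene-by-gene differences was -0.47, where that of all genes was 0.02. None of these genes passed singly. At an unadjusted p under 0.05 there were 14 of 31 plastid ribosomal protein genes, 9 of 29 tetrapyrrole genes and 6 of 21 Calvin cycle genes. There were 7 of 21 genes of plastid transcription and import, 1 of 30 photosystem genes and 1 of 21 antenna genes, against 1135 of the 20975 genes. For cytosolic ribosomal protein genes the medians were 0.13 and 0.16. Seed storage genes went the other way, with -0.96 in polysome-bound and -1.43 in total RNA. The median of their gene-by-gene differences was 0.74, over 10 genes.

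**Figure D5:**
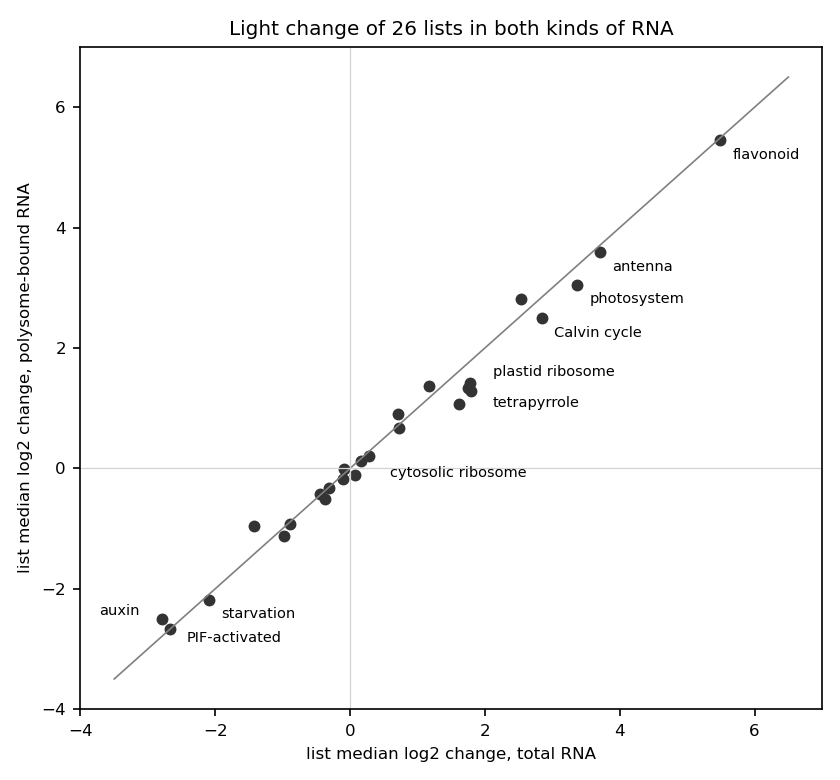
Median log2 change, L4h against Dark, of 26 gene lists in total RNA (horizontal axis) and in polysome-bound RNA (vertical axis), each point 1 list, with the line of equal change. The points follow the line from the auxin and PIF-activated lists at the lower left to the flavonoid list at the upper right, and the Calvin cycle, plastid ribosome and tetrapyrrole lists lie below it.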

How the data were processed

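RNA-seq libraries of polysome-bound RNA (3 Dark, 3 L4h) were compared, and 6 total RNA libraries entered the comparison between kinds of RNA. The authors deposited, for each library, read counts and RPKM values for 33323 genes; aligner, counter and strand setting are not given in the sources used here, and the genome build is TAIR10 per the submitters' processing notes. The deposited counts are expected counts, since only 84.4 to 87.2% of values are whole (tolerance 1e-06), and were rounded. RPKM, reads scaled by gene length and library size, was used as the authors deposited it, in alternatives only. No plastid or mitochondrial genes are listed. Gene positions, names and sequences are from RefSeq (TAIR10.1), which held 32835 of the genes.

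Counts were tested with edgeR 4.0.16 in R 4.3.3 by its quasi-likelihood test, after low genes were dropped by filterByExpr (minimum count 10) and libraries scaled by TMM, with Benjamini-Hochberg adjustment over all tested genes and a threshold of 0.05, with the replicate number as a block. Same-numbered libraries correlated at 0.729, 0.621 and 0.681 in their deviations from group means, others at -0.598 to 0.118, so the numbers pair the libraries in the data; the labels do not say what a number shares. The test of polysome-bound against total RNA used 12 libraries with 6 blocks. Each SE was derived from the quasi-likelihood test, as the absolute log2 change divided by the square root of the gene's F value. Alternatives were no block, RLE scaling, other filters, leaving out each replicate, limma 3.58.1 on log2(RPKM + 1) and log2(RPKM + 0.1), and DESeq2 1.42.0. P-values measure the spread between these libraries, which may be technical.

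The comparison and the 26 gene lists were chosen with earlier results of these data known. Named genes are the 12 largest rises and 12 largest falls among genes that passed, with at least 10 CPM in the higher group and groups that do not overlap; from each list its first 2 tested members and up to 3 with the largest change; and other members as examples. Many further list members are named beyond that rule, chosen after their values were seen.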

Additional observations from a re-analysis of the deposited data

How the results depend on the processing

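Without the replicate block, 1154 genes rose and 1051 fell, of which 1117 and 998 changed at least 2-fold. Leaving out one replicate gave 2755 to 5220 rises and 2190 to 4703 falls, the lowest without replicate 2. Of the 9923 genes called without replicate 1, 8554 were called with all pairs. The other settings gave 4101 to 4918 rises and 4199 to 4838 falls. The interaction gave 0 calls except without replicate 1, where the change was higher in polysome-bound RNA for 2 genes and lower for 3. The causes of these shifts were not tested. Among the 209 named genes recomputed, 81 lost their call without the block, 27 without replicate 2, 9 without replicate 3 and 2 without replicate 1. The calls of ACT2 and RGL2 were lost with RLE scaling, that of ACT2 also with the RPKM filter, those of EIF3H and SAND without the filter on low counts, those of RGL2 and SAND with limma, and that of BIP3 with limma at a pseudocount of 1. Calls were gained by HSC70-1, F3'H, GAPC1 and GA2OX2 with DESeq2 and without replicate 1, by UVR8 and PIF1 without replicate 1, and by EXPA1 without replicate 3.

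None of the named genes that passed changed direction under these settings. Of those that did not pass, ACS2 was at -0.01 and -0.02 (log2) with limma at pseudocounts of 1 and 0.1, and ranged from -0.11 to 0.16 when one replicate was left out. On leaving out one replicate, RPS6A ranged from -0.18 to 0.29, PIF3 from -0.14 to 0.37, HFR1 from -0.11 to 0.16 and CYCB1;1 from -0.22 to 0.05.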

Other observations

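Some genes were listed at 0 in one library and were well read in another of the same group. Of the tested genes, 37 were at 0 in a library and at 10 CPM or more in another, and for 19 of them both values lay within one group. UBQ6, a ubiquitin gene, had 203, 98.4 and 0 CPM in Dark and 0, 0 and 119 CPM in L4h. PMEAMT, a phosphoethanolamine methyltransferase gene, had 9.38, 9.34 and 29.6 CPM in Dark and 24.4, 32.5 and 0 CPM in L4h. The overlapping pair AT5G01210, annotated as an acyl-transferase, and AT5G01215 took opposite courses in Dark, at 17, 169 and 282 CPM for the former and 113, 0 and 0 CPM for the latter. Of the 19 genes, 9 overlap another annotated gene (47.4%, against 28.7% of all tested genes) and 3 passed the test of L4h against Dark. These genes were chosen after their values were seen, and the source of the zeros was not tested.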
